A study of Mus musculus with 12 samples.

Results

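Mural cells wrap blood vessels: smooth muscle cells form the contractile coat of arteries and arterioles, and pericytes sit on the capillaries. Smooth muscle contracts through an actin and myosin apparatus, and pericytes depend on platelet-derived growth factor from the endothelium and carry an ATP-sensitive potassium channel that links the energy state of the cell to its membrane potential. In the ventricle both are a minority beside cardiomyocytes, and whole-tissue RNA reads them as a small share of all transcripts. Described here are 8 genes that mark them, selected by symbol from the 33641 genes listed for each sample: Acta2, Tagln, Myh11 and Cnn1 for contractile smooth muscle, and Rgs5, Pdgfrb, Kcnj8 and Abcc9 for pericytes. All 8 had a mean of at least 0.5 TPM (a share of all transcripts after correction for gene length, scaled to a total of 1000000) and were among the 12526 genes tested.

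The RNA came from whole LV or RV tissue of knock-in mice aged 12 to 14 weeks given as strain C57BL/6J, with 3 samples in each of 4 groups. In all 4 groups the mouse Pln gene had been replaced by a sequence encoding human phospholamban (PLN), the small protein that holds back the calcium pump of the sarcoplasmic reticulum. The WT-PLN mice were homozygous for normal human PLN, and the R14del-PLN mice were heterozygous, with 1 copy lacking arginine 14 and 1 normal copy. The targeted allele was carried into a line bred with Sox2-Cre mice, whose Cre acts in the early embryo and not in heart muscle or vessels alone, and the founders mixed 129/Sv and C57Bl/6J backgrounds. The labels do not say whether an LV and an RV sample with the same number came from one mouse, and p-values measure the spread between these samples only. In whole tissue, fewer cells of a type and less RNA per cell cannot be told apart.

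Several samples stood apart before any comparison was made. The LV WT-PLN sample of replicate 3 had the highest value of all 12 samples for 34.2% of the tested genes, and the LV R14del-PLN sample of replicate 3 had it for 32.9%, where an equal share would be 8.33%. Mitochondrially encoded transcripts took 37.3% to 54.5% of all TPM, with these same samples at the low end at 44.0% and 37.3%. Both WT-PLN samples of replicate 1 had at most 0.284 TPM summed over 4 Y-linked genes, against at least 43.5 TPM in the other 10 samples, although the study describes male mice. According to the deposited names, the RV R14del-PLN sample of replicate 3 came from another sequencing run than the other 11. Cardiomyocyte genes, the defining markers of ventricular tissue, summed to between 32227 and 49147 TPM, the highest sum of any list. Red cell genes summed to 956 to 2316 TPM and skeletal muscle genes to 1.07 to 3.11 TPM.

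The 8 genes lie on 6 chromosomes of the mouse genome GRCm38, and Kcnj8 and Abcc9 are neighbours on the minus strand of chromosome 6, separated by 16247 bases. Kcnj8 lies at chr6:142564837-142571614 and Abcc9 at chr6:142587862-142702315. Acta2 lies at chr19:34241090-34255590 on the minus strand, and Myh11 at chr16:14194535-14291372 on the minus strand. Cnn1 lies at chr9:22099216-22109630 on the plus strand, and Tagln, on the same chromosome, at chr9:45929619-45936058 on the minus strand. Rgs5 lies at chr1:169655501-169695813 and Pdgfrb at chr18:61045150-61085061, both on the plus strand. Tagln overlaps Pcsk7 (mean 3.52 TPM) on the other strand and shares 647 bases of identical transcript sequence with the gene model Gm48529. Whether reads were counted by strand is not stated, so the level of Tagln holds that uncertainty. Acta2 resembles other actin genes, with 85.6% identity to Acta1 (mean 72.5 TPM) over 1135 aligned bases and 84.1% to Actg2 (mean 0.881 TPM). No near-identical copy of Acta2, Tagln, Myh11, Cnn1, Rgs5, Pdgfrb or Kcnj8 was found. A stretch of Abcc9 matched 28 gene models of 125 or 126 bases that are annotated as miRNAs, none of which is listed in the files, so reads from that stretch may be shared.

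The contractile genes are shared targets of serum response factor, which binds the CArG box, and sequence upstream of a gene start was available from RefSeq (GRCm38.p6) for Acta2, Cnn1, Rgs5, Kcnj8 and Abcc9. The 250 bases before the RefSeq start were searched on both strands for the CArG box and for versions with at most 1 departure among the inner bases. The departure form was present in 8.59% of 32851 windows of this kind, and the exact form in 1.47%. Acta2 held a pair of the departure form, at chr19:34255448-34255457 and chr19:34255398-34255407. The RefSeq start of Acta2, at 34255373, lies 217 bases inside the first exon of the GENCODE vM21 gene model, which starts at 34255590, so both matches are before the start in RefSeq and inside an annotated exon in GENCODE. They are printed because they are the only matches among the 5 genes, with capitals for the whole match on the minus strand:
Acta2, 84 to 75 bases before the RefSeq start: CCCTATATGG
Acta2, 34 to 25 bases before the RefSeq start: CCTTGTTTGG

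A contractile and a pericyte gene are set side by side below as the stretches just before their first exons. Cnn1 (213 bases, chr9:22099003-22099215, plus strand) had no match to the CArG box in this window. Rgs5 (250 bases, chr1:169655251-169655500, plus strand) had no CArG match and held TATATA, in capitals, 30 to 25 bases before the start, a run found in 5.25% of windows. The windows of Kcnj8 and Abcc9 held neither. These are descriptions of letters in 1 window and no evidence on binding.
Cnn1: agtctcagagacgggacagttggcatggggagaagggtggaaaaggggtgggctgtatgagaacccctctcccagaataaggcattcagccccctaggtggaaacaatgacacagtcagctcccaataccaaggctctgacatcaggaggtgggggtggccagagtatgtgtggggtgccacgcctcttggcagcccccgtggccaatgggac
Rgs5: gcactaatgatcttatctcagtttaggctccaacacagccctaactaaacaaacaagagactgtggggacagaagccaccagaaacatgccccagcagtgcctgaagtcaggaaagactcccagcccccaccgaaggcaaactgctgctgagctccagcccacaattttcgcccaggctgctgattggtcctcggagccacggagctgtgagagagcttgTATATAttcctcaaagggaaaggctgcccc

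Acta2, which encodes smooth muscle actin, was at 34.4, 29.8 and 121 TPM in the LV WT-PLN samples and at 33.8, 29.8 and 41.9 TPM in the RV. In R14del-PLN hearts it was at 32.3, 36.2 and 52.0 TPM in the LV and at 36.7, 39.8 and 24.1 TPM in the RV. All values but 1 lay between 24.1 and 52.0 TPM, and the exception was replicate 3 of the LV WT-PLN group, at 3.51 times the median of the other 11 samples. The groups overlapped in every comparison.

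Tagln encodes transgelin, an actin-binding protein of the contractile apparatus. Its values were 13.0, 13.2 and 99.9 TPM in the LV and 5.58, 10.6 and 12.2 TPM in the RV WT-PLN samples. In R14del-PLN hearts they were 7.52, 10.3 and 22.7 TPM in the LV and 15.7, 16.9 and 7.18 TPM in the RV. The same LV WT-PLN sample was at 8.20 times the median of the others. Among WT-PLN hearts each LV sample was above each RV sample, by a narrow margin for the first and second LV samples, and in the remaining comparisons the groups overlapped.

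Myh11, the smooth muscle myosin heavy chain, was at 3.82, 4.59 and 23.2 TPM in the LV and at 2.29, 3.11 and 4.78 TPM in the RV WT-PLN samples. It was at 2.29, 2.97 and 7.45 TPM in the LV and at 3.87, 7.93 and 2.95 TPM in the RV R14del-PLN samples. Cnn1, which encodes calponin, a regulator of the actin-activated myosin ATPase, was the least abundant member, at 1.45, 0.80 and 15.7 TPM in the LV and 0.43, 1.00 and 1.61 TPM in the RV WT-PLN samples. In R14del-PLN hearts Cnn1 was at 1.14, 0.63 and 2.41 TPM in the LV and at 1.74, 2.23 and 0.85 TPM in the RV. Both genes had their highest value in the same LV WT-PLN sample, at 6.06 times the median of the others for Myh11 and 13.8 times for Cnn1, and neither separated any pair of groups.

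**Figure D1:**
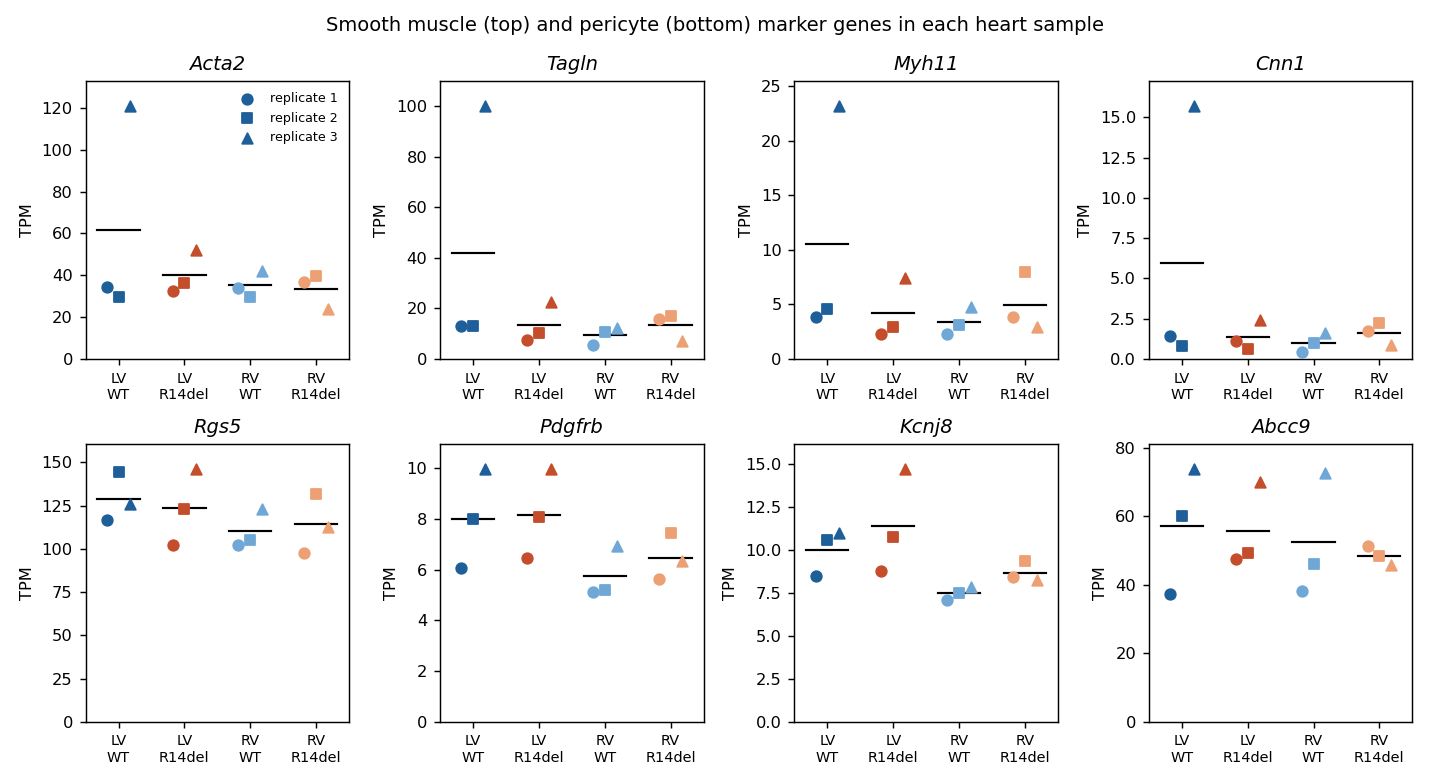
TPM (vertical axis, linear from 0) of the 4 contractile smooth muscle genes (top) and 4 pericyte genes (bottom) in the 12 samples, by ventricle and genotype; each point is 1 sample, its shape gives the replicate number and the black line is the mean of the group. The third LV WT-PLN sample lies far above all others for Acta2 (121 TPM), Tagln (99.9 TPM), Myh11 (23.2 TPM) and Cnn1 (15.7 TPM) and within the range of the others for Rgs5 and Kcnj8.

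Among the pericyte genes, Rgs5, a regulator of G protein signalling and one of the most abundant pericyte transcripts, was the highest of the 8 members and the steadiest. It was at 117, 144 and 126 TPM in the LV and 102, 105 and 123 TPM in the RV WT-PLN samples, and at 102, 123 and 146 TPM in the LV and 97.9, 132 and 113 TPM in the RV R14del-PLN samples. Its highest value was 1.49 times its lowest, against a median of 1.78 times over the 12349 tested genes above 0 in every sample. All 4 groups overlapped.

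Pdgfrb encodes the receptor through which platelet-derived growth factor recruits pericytes. It was at 6.06, 8.01 and 9.97 TPM in the LV and 5.13, 5.19 and 6.95 TPM in the RV WT-PLN samples. In R14del-PLN hearts it was at 6.45, 8.07 and 9.96 TPM in the LV and 5.61, 7.46 and 6.33 TPM in the RV. The LV means were above the RV means in both genotypes, at 8.01 ± 1.95 against 5.76 ± 1.03 TPM in WT-PLN and 8.16 ± 1.76 against 6.47 ± 0.93 TPM in R14del-PLN hearts (SD, n = 3 each), with overlap in both.

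Kcnj8 encodes Kir6.1, the pore of the vascular ATP-sensitive potassium channel. It was at 8.45, 10.6 and 10.99 TPM in the LV and 7.10, 7.47 and 7.81 TPM in the RV WT-PLN samples, and at 8.76, 10.8 and 14.7 TPM in the LV and 8.41, 9.34 and 8.25 TPM in the RV R14del-PLN samples. The RV WT-PLN samples were the lowest of all 12 and did not overlap with the LV WT-PLN samples or with the RV R14del-PLN samples.

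Abcc9 encodes SUR2, the regulatory partner of that pore, which cardiomyocytes also make for their own channel. It was at 37.3, 60.1 and 73.8 TPM in the LV and 38.2, 46.0 and 72.7 TPM in the RV WT-PLN samples, and at 47.6, 49.4 and 70.1 TPM in the LV and 51.1, 48.5 and 45.7 TPM in the RV R14del-PLN samples. Its values spread widely within 3 of the 4 groups and all groups overlapped. In the group means it was 4.88 to 7.01 times as abundant as Kcnj8 (both in TPM).

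By group mean the order of levels in both RV groups and in the LV R14del-PLN samples began with Rgs5, Abcc9, Acta2, Tagln, Kcnj8 and Pdgfrb and ended with Myh11 and Cnn1. In these 3 groups Rgs5 was separate from Abcc9, while Tagln and Kcnj8 overlapped. Abcc9 and Acta2 overlapped in the RV WT-PLN and the LV of R14del-PLN hearts. In the LV of WT-PLN hearts every neighbouring pair of genes overlapped, and Acta2 stood above Abcc9 at 61.6 ± 51.2 against 57.1 ± 18.4 TPM (SD, n = 3 each).

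The contractile genes departed together in the third LV WT-PLN sample. Acta2, Tagln, Myh11 and Cnn1 summed to 259 TPM there and to 35.1 to 84.6 TPM in the other 11 samples. The pericyte genes summed to 221 TPM in that sample, inside the range of 153 to 241 TPM over all samples. This sum holds Abcc9 (73.8 TPM in that sample), which cardiomyocytes also make. The ratio of the contractile to the pericyte sum was 1.17 in that sample and 0.203 to 0.356 elsewhere. The residual SD within groups (log2 scale) was 0.61 for Acta2, 0.99 for Tagln, 0.82 for Myh11 and 0.96 for Cnn1, against 0.20 for Rgs5, 0.25 for Pdgfrb, 0.20 for Kcnj8 and 0.37 for Abcc9 and a median of 0.19 over all tested genes. Only 0.782% of the tested genes had a larger SD than Tagln.

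Other lists of markers were also high in that sample, which had the highest value for 34.2% of all tested genes. The counts below are read against that share. Of 13 other smooth muscle genes tested, 8 had their highest value there, and the 15 listed summed to 439 TPM, above the 208 to 302 TPM of the remaining samples. Of 6 genes of elastic fibres and great vessels (Eln, Fbln5, Fbln2, Lox, Mfap4 and Fmod), all 6 were highest there, with a sum of 59.1 against 17.5 to 34.6 TPM. Fibroblast genes summed to 574 against 253 to 427 TPM, with 7 of 8 highest there. The 15 other mural genes summed to 101 against 55.7 to 93.5 TPM, with 8 of 15 highest there, and macrophage genes to 102 against 57.5 to 93.1 TPM, with 5 of 6 tested highest there. The atrial list (Sln, Myl7, Myl4, Nppa, Bmp10, Nr2f2 and Dkk3) summed to 1322 TPM there, with 2 of 6 tested highest there. Its next highest sum was 884 TPM, in the second RV WT-PLN sample, whose contractile genes summed to 44.5 TPM. Atrial sums ranged from 48.5 to 884 TPM over the other 11 samples. Bmp10 had a mean of 0.027 TPM. Cardiomyocyte and endothelial sums were 41721 and 238 TPM, against 32227 to 49147 TPM and 139 to 234 TPM in the others. Of these lists 0 of 8 and 2 of 8 genes were highest there. Adipocyte genes summed to 23.4 TPM there, against 3.39 to 31.3 TPM in the others, with 1 of 4 tested highest there. The part of great vessel, atrial or fat tissue in the contractile values was not tested.

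**Figure D2:**
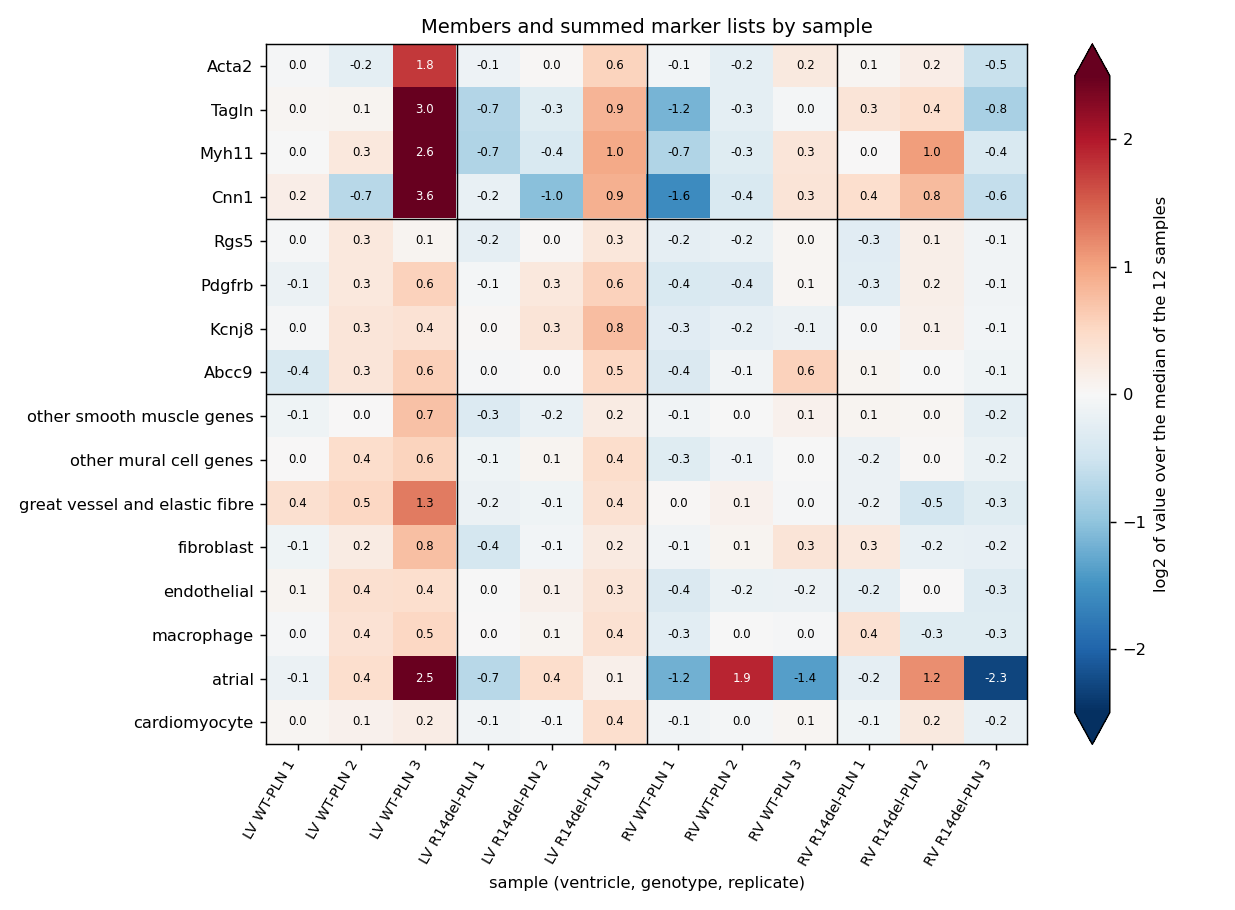
Log2 of each value over its own median across the 12 samples, for the 8 members (single genes, TPM) and for 8 summed marker lists (TPM), with samples in columns by ventricle, genotype and replicate. Tagln, Myh11 and Cnn1 are at 2.6 or more in the third LV WT-PLN sample while Rgs5 is at 0.1, and the atrial list is high both there (2.5) and in the second RV WT-PLN sample (1.9).

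R14del-PLN and WT-PLN hearts were compared in the LV to ask whether the mutation goes with a change in mural cell transcripts. No member was called (limma on log2(TPM + 1), Benjamini-Hochberg adjusted p of at most 0.05 over all tested genes and a fold change of at least 1.5), where 0.519% of the 12526 genes were called and 1203 had an unadjusted p under 0.05, none of them a member. The contractile genes were lower on average in R14del-PLN hearts, with fitted log2 differences of -0.34 for Acta2 (95% interval -1.21 to 0.53), -1.04 for Tagln (-2.43 to 0.34), -0.85 for Myh11 (-2.00 to 0.30) and -0.88 for Cnn1 (-2.21 to 0.46) and a median of -0.87, beside -0.09 over all tested genes. Without the third LV WT-PLN sample the differences were 0.29, -0.10, -0.11 and 0.12, so that for Acta2 and Cnn1 the sign turned. Differences of the pericyte genes were -0.07 for Rgs5 (-0.41 to 0.26), 0.03 for Pdgfrb (-0.38 to 0.44), 0.15 for Kcnj8 (-0.19 to 0.50) and -0.00 for Abcc9 (-0.55 to 0.55). That of Kcnj8 was larger under other scalings, at 0.26 after quantile normalization (0.09 to 0.44; limma unadjusted p = 0.00719, adjusted p = 0.164) and 0.25 after upper quartile scaling (0.06 to 0.44; adjusted p = 0.234), and it was 0.18 (-0.07 to 0.42) with mitochondrially encoded genes removed. Quantile normalization also narrowed the Kcnj8 interval between genotypes in the RV, to 0.03 to 0.38 (limma unadjusted p = 0.0277, adjusted p = 0.316), and between ventricles of R14del-PLN hearts, to -0.42 to -0.07 (limma unadjusted p = 0.00972, adjusted p = 0.485). The members' adjusted p ran from 0.66 to 0.998. No member separated the groups, and 11% of tested genes did.

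The RV comparison likewise called no member, where 0.271% of tested genes were called and 779 had an unadjusted p under 0.05, again with no member among them. The contractile genes differed by -0.08 for Acta2 (-0.95 to 0.78), 0.43 for Tagln (-0.95 to 1.81), 0.38 for Myh11 (-0.77 to 1.53) and 0.38 for Cnn1 (-0.96 to 1.71) on the log2 scale. Rgs5 differed by 0.04 (-0.29 to 0.38), Pdgfrb by 0.15 (-0.26 to 0.55) and Abcc9 by -0.06 (-0.61 to 0.49). Kcnj8 was the only member to separate the groups, as 11% of tested genes did, with 8.67 ± 0.59 TPM in R14del-PLN and 7.46 ± 0.35 TPM in WT-PLN hearts (SD, n = 3 each). Its log2 difference was 0.19 (-0.16 to 0.54; limma adjusted p = 1), and the exact permutation test gave 0.1, the smallest two-sided p for 3 samples against 3.

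Between ventricles of WT-PLN hearts all 8 members had lower means in the RV, beside 85.9% of all tested genes below 0 and a median log2 difference of -0.17 over all of them. Quantile normalization moved that median to 0.01, so the members are read against it. No member was called, and 0% of tested genes were called in limma, although 1811 genes had an unadjusted p under 0.05, Tagln and Kcnj8 among them. With genotype and replicate number as a block, which pairs the ventricles of both genotypes, 12 genes were called and no member was. The spread in that fit came from both genotypes, while the pairing check met its rule in WT-PLN hearts only. Under that block 5 members had an unadjusted p under 0.05, with 95% intervals of -2.41 to -0.47 for Tagln (limma unadjusted p = 0.00675, adjusted p = 0.178), -1.78 to -0.25 for Myh11 (unadjusted p = 0.0128), -1.97 to -0.23 for Cnn1 (unadjusted p = 0.0171), -0.72 to -0.08 for Pdgfrb (unadjusted p = 0.0175) and -0.71 to -0.03 for Kcnj8 (unadjusted p = 0.0357), with adjusted p of 0.223 to 0.297 for the last 4. The share of all tested genes at that p under the block is not given here, and it was 14.5% without the block. These block intervals include the third LV WT-PLN sample, and no block fit without it was made. Tagln, Myh11, Rgs5, Pdgfrb and Kcnj8 were lower in the RV in 3 of 3 pairs, and Acta2, Cnn1 and Abcc9 in 2 of 3. Tagln differed by -1.44 (95% interval -2.82 to -0.06; limma unadjusted p = 0.0426, adjusted p = 0.33), and by -0.49 (-1.42 to 0.44) without the third LV WT-PLN sample. Kcnj8 differed by -0.37 (-0.72 to -0.02; limma unadjusted p = 0.0387, adjusted p = 0.322) and by -0.19 after quantile normalization. These were also the 2 of 8 members whose groups did not overlap, at an exact permutation p of 0.1 each, while 26.1% of tested genes did not overlap. Pdgfrb differed by -0.40 (-0.81 to 0.00), Rgs5 by -0.22 (-0.56 to 0.11) and Abcc9 by -0.12 (-0.67 to 0.43), and Abcc9 was at 0.06 after quantile normalization. Acta2, Myh11 and Cnn1 differed by -0.51, -1.02 and -1.10, and by 0.12, -0.28 and -0.10 without the third LV WT-PLN sample. Mitochondrially encoded transcripts moved with this contrast, at 44.0% to 47.3% in the LV and 48.7% to 52.7% in the RV, and with them removed and the rest rescaled Kcnj8 differed by -0.26 and Tagln by -1.35. Endothelial markers moved the same way: none was called, 6 of 8 were lower in the RV at an unadjusted p under 0.05, their median difference was -0.46, and their sums were 187 to 238 TPM in the LV and 139 to 160 TPM in the RV. Of 15 other mural genes, 6 were lower in the RV at an unadjusted p under 0.05 (median -0.36). So were 4 of 13 other smooth muscle genes (median -0.51), and none of either list was called. The part of the number of vessels in the values of the members was not tested.

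In R14del-PLN hearts no member was called between ventricles, with 0% of tested genes called by limma and 823 at an unadjusted p under 0.05, and no member separated the groups, where 9.98% of tested genes did. The contractile genes were on both sides of 0, at -0.25 for Acta2 (-1.12 to 0.61), 0.04 for Tagln (-1.35 to 1.42), 0.21 for Myh11 (-0.94 to 1.36) and 0.16 for Cnn1 (-1.18 to 1.49). The pericyte genes were all below 0, at -0.11 for Rgs5, -0.28 for Pdgfrb, -0.33 for Kcnj8 (-0.68 to 0.01) and -0.18 for Abcc9, beside a median of -0.08 over all tested genes. Rgs5 was at 0.06 after quantile normalization. The mean of Kcnj8 was thus lower in the RV than in the LV in both genotypes, by a fitted -0.37 and -0.33, and the difference between these, tested as the interaction, was 0.04 (-0.46 to 0.53; limma adjusted p = 1).

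The interaction asks whether the genotype contrast differs between ventricles. It called 0 members and 0 genes (0%) in limma, with 127 genes at an unadjusted p under 0.05 and no member among them. The contractile genes had the widest values, at 0.25 for Acta2 (-0.97 to 1.48), 1.47 for Tagln (-0.48 to 3.43), 1.23 for Myh11 (-0.40 to 2.86) and 1.25 for Cnn1 (-0.63 to 3.14). Without the third LV WT-PLN sample they were -0.37, 0.52, 0.49 and 0.26. With genotype and replicate number as a block, the intervals of Tagln, Myh11 and Cnn1 excluded 0. They were 0.10 to 2.84 (limma unadjusted p = 0.0369), 0.15 to 2.31 (unadjusted p = 0.0285) and 0.02 to 2.49 (unadjusted p = 0.0462). Each had an adjusted p of 0.9999, and the intervals of the other members included 0. That block fit held the third LV WT-PLN sample, and the pairing check met its rule in WT-PLN hearts only. The share of all tested genes at such a p under the block is not given here. These intervals are therefore not read as a result about the members. For the pericyte genes the interaction lay between -0.05 for Abcc9 and 0.12 for Pdgfrb.

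**Figure D3:**
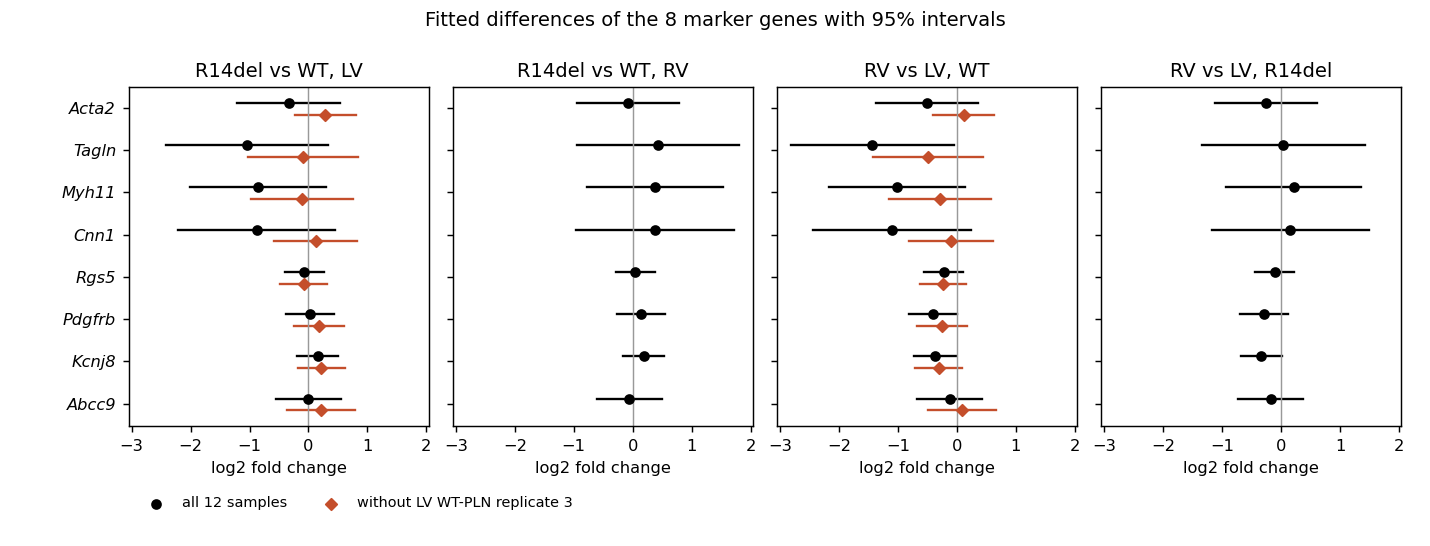
Fitted log2 fold changes on the log2(TPM + 1) scale (horizontal axis) with 95% intervals for each member in the 4 pairwise comparisons; black circles use all 12 samples and orange diamonds leave out the third LV WT-PLN sample, drawn where that sample enters the contrast. The black intervals of Tagln, Myh11 and Cnn1 span over 2 log2 units and those of Rgs5 and Kcnj8 under 1, and the LV differences of the contractile genes move to between -0.11 and 0.29 without that sample.

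Both WT-PLN samples of replicate 1, which were low in Y-linked transcripts, were also left out together. No member was called then either. In the LV the genotype difference was -1.52 for Tagln and -1.28 for Myh11, and Pdgfrb turned from 0.03 to -0.14. In the RV that of Kcnj8 was 0.16 and that of Rgs5 turned from 0.04 to -0.01.

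Wider lists of mural genes were read next, with levels given as mean ± SD of 3 samples. Of 13 other smooth muscle genes tested (15 listed), none was called in the LV or the RV between genotypes. Mustn1 had the smallest p in the LV, at 3.77, 5.23 and 7.85 TPM in WT-PLN and 2.70, 2.74 and 5.18 TPM in R14del-PLN hearts (limma adjusted p = 0.46). Pcp4l1, the most abundant of this list, was at 109 ± 7.22 TPM in the RV WT-PLN and 93.3 ± 11.4 TPM in the RV R14del-PLN samples (SD, n = 3 each), with a log2 difference of -0.23 (limma adjusted p = 0.868). Smtn, which encodes smoothelin, was at 60.5 ± 9.95 TPM in the LV WT-PLN and 57.3 ± 8.65 TPM in the LV R14del-PLN samples.

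None of 15 other mural genes was called either. Their median log2 difference between genotypes was -0.12 in the LV and 0.04 in the RV, beside -0.09 and -0.00 over all tested genes. Ndufa4l2 and Steap4 were the most abundant, at 12.3 ± 2.14 and 9.88 ± 3.07 TPM in the LV WT-PLN samples. P2ry14, a receptor for UDP-sugars, had the smallest p in the LV at 1.94 ± 0.14 TPM in WT-PLN and 1.46 ± 0.19 TPM in R14del-PLN hearts (log2 difference -0.26, limma adjusted p = 0.511).

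Among 16 regulators of mural cells, Klf4, a transcription factor that holds back smooth muscle differentiation, came nearest to the threshold. It was at 11.6, 27.0 and 23.5 TPM in the LV and 8.29, 18.7 and 16.4 TPM in the RV WT-PLN samples. In R14del-PLN hearts it was at 6.68, 7.02 and 7.54 TPM in the LV and 5.19, 6.21 and 5.06 TPM in the RV. Every R14del-PLN sample was below every WT-PLN sample, and the lowest WT-PLN values were those of replicate 1. The log2 difference was -1.35 in the LV (limma adjusted p = 0.0698) and -1.19 in the RV (limma adjusted p = 0.159), so it was not called. Without both replicate 1 WT-PLN samples it was -1.70 (limma adjusted p = 6.65e-05) in the LV and -1.52 (limma adjusted p = 0.000236) in the RV, both past the threshold. Other alternatives moved Klf4 away from it. Limma adjusted p in the LV and RV was 0.295 and 0.144 without the second LV WT-PLN sample and 0.268 and 0.172 without the third. With no filter on low values it was 0.211 and 0.442. Klf4 is also made by endothelial cells and responds early to stress, and the cell type behind its level was not tested. Srf, which encodes serum response factor, was the most abundant of this list, at 20.3 ± 1.66 TPM in the LV WT-PLN and 18.3 ± 2.30 TPM in the LV R14del-PLN samples.

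The ATP-sensitive potassium channels of the heart use the pair of Kcnj8 and Abcc9 in vessels and, in cardiomyocytes, Kcnj11 with Abcc8 or Abcc9. None of the 4 genes was called. Kcnj11 was at 48.7 ± 5.44 TPM in the LV WT-PLN and 50.5 ± 9.05 TPM in the LV R14del-PLN samples, near the level of Abcc9 and above that of Kcnj8. Abcc8 was at 9.39 ± 1.52 TPM in the first and 7.61 ± 0.59 TPM in the second of these groups.

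Of 7 tested receptors for vasoconstrictors, none was called. Ednra, the endothelin receptor of smooth muscle, was at 15.2 ± 2.23 TPM in the LV WT-PLN and 10.5 ± 2.45 TPM in the LV R14del-PLN samples (log2 difference -0.52, limma adjusted p = 0.347). Adra1d, an adrenergic receptor, was at 0.341 ± 0.084 TPM in the RV WT-PLN and 0.973 ± 0.226 TPM in the RV R14del-PLN samples (log2 difference 0.55, limma adjusted p = 0.268). Agtr1a, the angiotensin receptor, was the most abundant, at 16.9 ± 1.62 TPM in the LV WT-PLN and 18.5 ± 2.25 TPM in the LV R14del-PLN samples.

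Eln, which encodes elastin and is made by smooth muscle cells and fibroblasts, was the only gene of the wider lists called in any comparison. It was at 5.44, 5.32 and 9.34 TPM in the LV WT-PLN and 2.10, 2.29 and 3.43 TPM in the LV R14del-PLN samples, without overlap. The log2 difference was -1.07 ± 0.20 (SE; limma adjusted p = 0.0315), and without the third LV WT-PLN sample it was -0.84 (limma adjusted p = 0.105). RV levels were 3.46 ± 0.68 TPM in WT-PLN and 2.22 ± 0.25 TPM in R14del-PLN hearts (SD, n = 3 each), with a log2 difference of -0.46 (limma adjusted p = 0.752), and the difference between ventricles was not called. The leave-out values of Eln range over both sides of the threshold: it was also not called without the second LV WT-PLN sample (adjusted p = 0.065) or without the first or second LV R14del-PLN sample (adjusted p = 0.162 and 0.153), and with no filter on low values (adjusted p = 0.126).

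Whether members vary together between samples of one group was examined over the 28 pairs, on log2(TPM + 1) with the 4 group means removed and with exact permutation of samples within groups (1296 rearrangements, smallest p 0.000772). The 6 pairs of contractile genes had Pearson's r of 0.92 to 0.96 and Spearman's rho of 0.92 to 0.99. Tagln with Myh11 had r = 0.96 and rho = 0.99 (exact permutation p = 0.000772 for both, adjusted p = 0.0216 for r over the 28 pairs). Without the third LV WT-PLN sample the 6 pairs kept r of 0.81 to 0.89, although 1 of them then passed the adjustment, and without the 2 samples farthest from the median of the first gene r was 0.82 to 0.91.

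The 6 pairs of pericyte genes had r of 0.58 to 0.85 and rho of 0.58 to 0.87. Pdgfrb with Kcnj8 had r = 0.85 and rho = 0.87 (exact permutation p = 0.00231 and 0.00617), and r = 0.84 without the 2 farthest samples. The neighbours Kcnj8 and Abcc9 had r = 0.72 and rho = 0.80 (exact permutation p = 0.00231 and 0.00386). Rgs5 with Pdgfrb had r = 0.80 and rho = 0.81 (exact permutation p = 0.0116 and 0.0108), and 0.98 without the third LV WT-PLN sample. Between the groups of genes, r ran from 0.12 for Cnn1 with Rgs5 to 0.86 for Myh11 with Pdgfrb.

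At an adjusted p of at most 0.05 over the 28 pairs (exact permutation), 14 pairs passed: 6 contractile, 5 pericyte and 3 between, all with Myh11. The share of pairs of other tested genes that would pass is not given here, so passing is not read as particular to the members. The count of 14 depended on how values were scaled and on single samples. It was 1 after mitochondrially encoded genes were removed and 0 after quantile normalization. It was 0 too when LV and RV samples of one genotype and number were moved together (36 rearrangements, smallest p 0.0278). With so few rearrangements, pairs at that smallest p had an adjusted p of 0.0972, so this 0 cannot show whether the pairs vary together. The count was also 0 without the third RV WT-PLN sample or the third LV R14del-PLN sample, and 4 without the third RV R14del-PLN sample. It was 8 without any one of the first RV WT-PLN, the first or second LV R14del-PLN and the second RV R14del-PLN samples. The lowest r of a contractile pair stayed at 0.90 and 0.89 without mitochondrially encoded genes and after quantile normalization, while that of a pericyte pair went from 0.58 to 0.31 and 0.08.

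**Figure D4:**
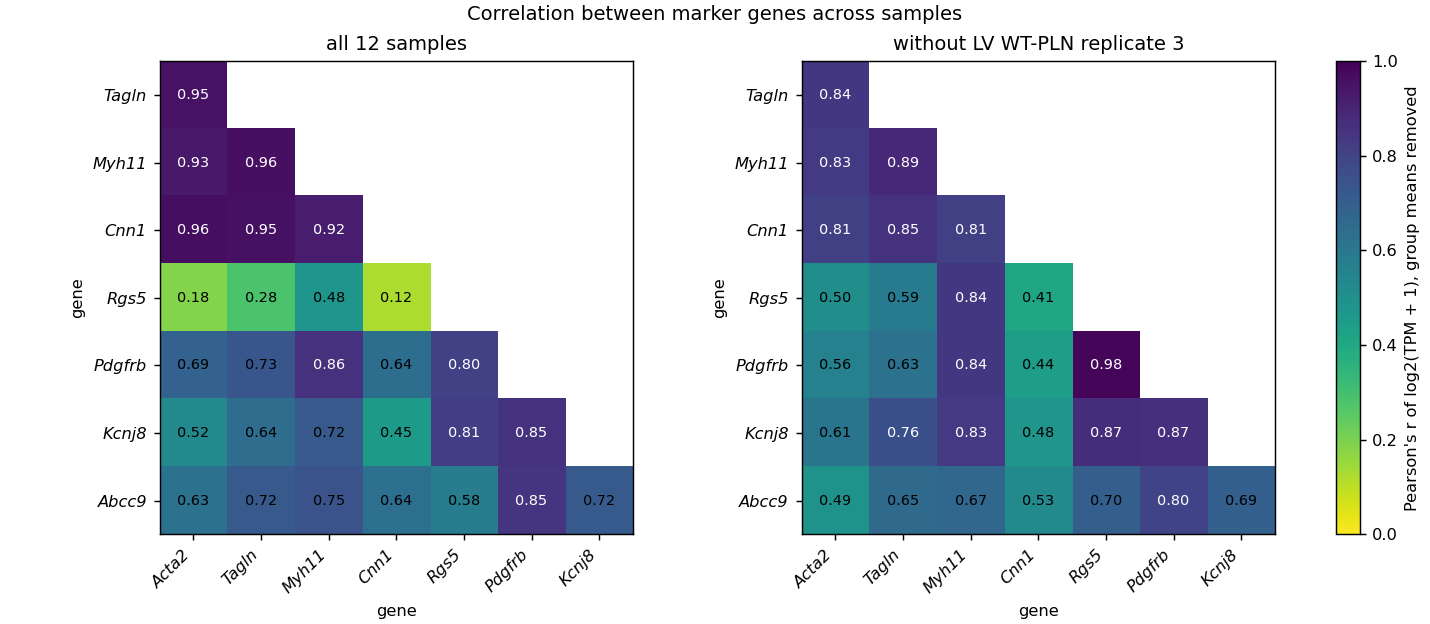
Pearson's r between members over samples on log2(TPM + 1) after the group means were removed, with all 12 samples (left) and without the third LV WT-PLN sample (right); colour and printed value give r. Contractile pairs are at 0.92 to 0.96 on the left and 0.81 to 0.89 on the right, and pericyte pairs at 0.58 to 0.85 and 0.69 to 0.98.

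The genes whose pattern over the 12 samples was most like the mean of the standardised contractile members, by Pearson's r on log2(TPM + 1), were Lmod1 (r = 0.99) and Tpm2 (0.98), followed by Ccdc3, Ltbp2, Flna, Mylk, Itga8, Col18a1, Uba2 and Actn1, down to 0.95. Of these 10, 4 belong to the other smooth muscle list (Lmod1, Tpm2, Mylk and Itga8). All 10 were highest in the third LV WT-PLN sample, which follows from their selection, since the contractile members were all highest there. Without that sample their r was 0.73 to 0.97, and 1 of the 10, Tpm2, which encodes a tropomyosin, was still among the 10 most alike. For the pericyte members the 10 were Map4k3 (r = 0.98), Nynrin, Plxnd1, Itga1, E2f6, Notch3, Tlk2, Gna12, Ankrd52 and Asap2, down to 0.96. Notch3, a receptor of mural cells, was the only gene of the other mural list among them. Without the third LV WT-PLN sample 8 of these 10 remained, and with mitochondrially encoded genes removed 5 did, against 7 for the contractile genes.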

How the data were processed

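PolyA stranded RNA sequencing of 12 mouse LV and RV samples was used. The authors deposited TPM values, 1 per gene and sample. CLC Genomics Workbench and GRCm38 are named for mapping, and the program, annotation and strand setting behind TPM are not given in the sources used here. Each sample sums to 1000000, so depth is unknown and no counting interval could be given. Genotype, ventricle and replicate came from the labels, where "KO" titles carry the genotype R14del-PLN.

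All 12 samples entered a model of 4 group means in limma 3.58.1 (R 4.3.3, with an intensity trend; degrees of freedom were 8 residual plus 5.15 prior). Values were taken as log2(TPM + 1), a scale that understates the change of low genes. Of 22948 genes above 0 in any sample, the 12526 with a mean TPM of 0.5 or more were tested. A call required both a fold of 1.5 or more and a p of 0.05 or less after Benjamini-Hochberg adjustment over them. The model and the correlation step were tested on simulated data. Python 3.11.15, numpy 2.4.6, pandas 2.3.3, matplotlib 3.10.9 and BLAST 2.17.0 (near-identical: 95% identity over 80% of the shorter transcript) were used for the rest. Promoter windows came from RefSeq and matched 5 of 8 members.

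As a pairing check, deviations from group means were correlated between LV and RV samples with the same number. They were 0.66, 0.32 and 0.46 in WT-PLN hearts, which pairs them by the rule that each exceed 0.1, and 0.39, 0.23 and 0.05 in R14del-PLN hearts, which does not. The block changed no member's call.

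Wider-list genes were named if called, if among the 2 most abundant or if of smallest p in a genotype contrast. Not every list of another cell type is described. A gene that the rule names is not reported here. Members and lists were chosen with earlier results of these data known. Alternatives were pseudocounts of 0.5 and 0.1, filters at 1 and 5 TPM and none, upper quartile scaling, no trend, mitochondrially encoded genes left out, quantile normalization, the 6 samples of a comparison alone, replicate blocks and samples left out.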

Additional observations from a re-analysis of the deposited data

How the results depend on the processing

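No member was called under any of the alternatives in any comparison, nor by the adjusted p alone. Of 971 values of members under alternatives, 917 kept their direction. The lowest adjusted p of a member was 0.162. Over all genes the calls ranged from 19 to 230 in the LV, 14 to 91 in the RV, 0 to 12 between WT-PLN ventricles, 0 to 1 between R14del-PLN ventricles and 0 to 2 for the interaction. The replicate number as a block raised the calls of the wider lists from 1 to 2 genes by adding Klf4, called in both ventricles. Samples of both genotypes with the same number correlated between -0.02 and 0.16 in the LV and 0.06 and 0.22 in the RV, so numbers do not pair them. No member's call changed under a replicate block. The number of correlated pairs was 14, against 1 without mitochondrially encoded genes, 0 after quantile normalization and 0 to 20 with 1 sample left out. It was 0 with both ventricles moved together, where pairs at the smallest p of the 36 rearrangements had an adjusted p of 0.0972. That 0 cannot show whether the pairs vary together. The number was 0 without the third RV WT-PLN or the third LV R14del-PLN sample, and 4 without the third RV R14del-PLN sample. It was 8 without the first RV WT-PLN, the first or second LV R14del-PLN or the second RV R14del-PLN sample. The cause was not tested.

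Directions that turned were all of small differences or of contractile genes. After quantile normalization, Rgs5 and Abcc9 were at 0.036 and 0.085 for genotype in the LV, Abcc9 at 0.062 between WT-PLN ventricles, Rgs5 at 0.061 between R14del-PLN ventricles and Kcnj8 at -0.060 for the interaction. After upper quartile scaling, Rgs5 and Abcc9 were at 0.034 and 0.0997 in the LV, Abcc9 at 0.056 between WT-PLN ventricles and Kcnj8 at -0.059 for the interaction. Without mitochondrially encoded genes, Abcc9 was at 0.014 for genotype in the LV and 0.013 between WT-PLN ventricles, and Rgs5 at 0.053 between R14del-PLN ventricles. Without both WT-PLN replicate 1 samples, Pdgfrb was at -0.14 in the LV, Rgs5 at -0.0062 in the RV and Abcc9 at 0.023 for the interaction.

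With 1 sample left out in turn, the genotype difference in the LV ranged from -0.70 to 0.29 for Acta2, -1.49 to 0.12 for Cnn1, -0.20 to 0.060 for Rgs5, -0.14 to 0.18 for Pdgfrb, -0.029 to 0.31 for Kcnj8 and -0.28 to 0.21 for Abcc9. In the RV it ranged from -0.22 to 0.13 for Acta2, -0.063 to 0.15 for Rgs5 and -0.25 to 0.20 for Abcc9. Between WT-PLN ventricles the range was -0.87 to 0.12 for Acta2 and -0.39 to 0.087 for Abcc9. Between R14del-PLN ventricles it was -0.28 to 0.46 for Tagln, -0.13 to 0.62 for Myh11, -0.087 to 0.45 for Cnn1 and -0.24 to 0.018 for Rgs5. For the interaction it was -0.37 to 0.62 for Acta2, -0.015 to 0.24 for Rgs5, -0.034 to 0.28 for Pdgfrb, -0.12 to 0.22 for Kcnj8 and -0.26 to 0.22 for Abcc9. Depth is unknown, so its part in these spreads could not be given.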
